A study of Cavia porcellus with 72 samples.

Results

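The core circadian clock genes CLOCK, ARNTL (also called BMAL1), PER1, PER2, PER3, CRY1, CRY2, NR1D1, NR1D2 and RORA were examined in the hippocampus of guinea pigs descended from pregnancies treated with synthetic glucocorticoid (sGC). The 10 symbols were taken as a fixed list, and all 10 were found among the 11446 genes that the count tables of the 3 generations share. The list was chosen with the sGC against control values of these same libraries already known, so that its differences between sGC and control are given as a description. RNA-seq libraries were made from the right hippocampus of female Dunkin-Hartley guinea pigs on postnatal day 40. Pregnant F0 animals had received betamethasone (labelled Beta, here sGC) or saline vehicle (control), and F1 offspring, F2 grandoffspring and F3 great-grandoffspring were followed through the paternal line, so that only the F1 animals were exposed in the womb themselves. There were 6 control and 5 sGC libraries in F1, 6 and 6 in F2, and 6 and 7 in F3, each from 1 animal, and by the study's methods the animals of a group had different mothers. The time of day at which the animals were killed is not given in the sources used here.

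In the textbook clock, CLOCK and ARNTL form a transcription factor pair that binds E-box elements and switches on PER and CRY genes, whose proteins enter the nucleus and repress that same pair. A stabilising loop is laid over this one, in which the nuclear receptors NR1D1 and NR1D2 (REV-ERB alpha and beta) repress ARNTL and RORA activates it. The loops run in most tissues, the hippocampus among them, so that the level of a clock transcript in a tissue taken once is a single point of a daily rhythm, and glucocorticoid hormone is known to act on the clock through glucocorticoid response elements at PER1 and other members.

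Between 13507449 and 19767033 reads were counted per library, and levels are given in counts per 1e+06 reads (CPM) after TMM scaling of all 36 libraries together, and differences as log2 ratios with their standard error (SE). Every member passed the filter on low counts in every generation. PER3 had the fewest reads, from 84 to 188 per library, and its errors were the widest. F2 libraries stood apart as a whole, with 5323 of 11311 genes different between F2 and F1 control animals, so levels are read within a generation first. The libraries numbered 32 to 36 (sGC replicates 4 and 5 of F1, 6 of F2, and 5 and 6 of F3) lie outside their generation's run of numbers and hold no control, so results were also obtained without them. Of the hippocampal neuron markers, 10 of 11 were measured, PROX1 of the dentate gyrus at 85.9 to 142.6 CPM and FIBCD1 of area CA1 at 186.9 to 287 CPM, and choroid plexus markers were low or not in the tables, with a summed level of 17.96 to 42.8 CPM for the 2 of 8 genes measured.

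In F1, CLOCK and RORA were higher in sGC animals than in every control animal, and the other 8 members overlapped between the groups. These 2 were also the members past an adjusted p of 0.05 in the quasi-likelihood test of edgeR, Benjamini-Hochberg adjusted over all 11377 genes tested, of which 2.08% were past it. For groups that do not overlap, the share over all genes was 4.31% in F1. As the list was selected on these differences, nothing is read from either count.

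**Figure D1:**
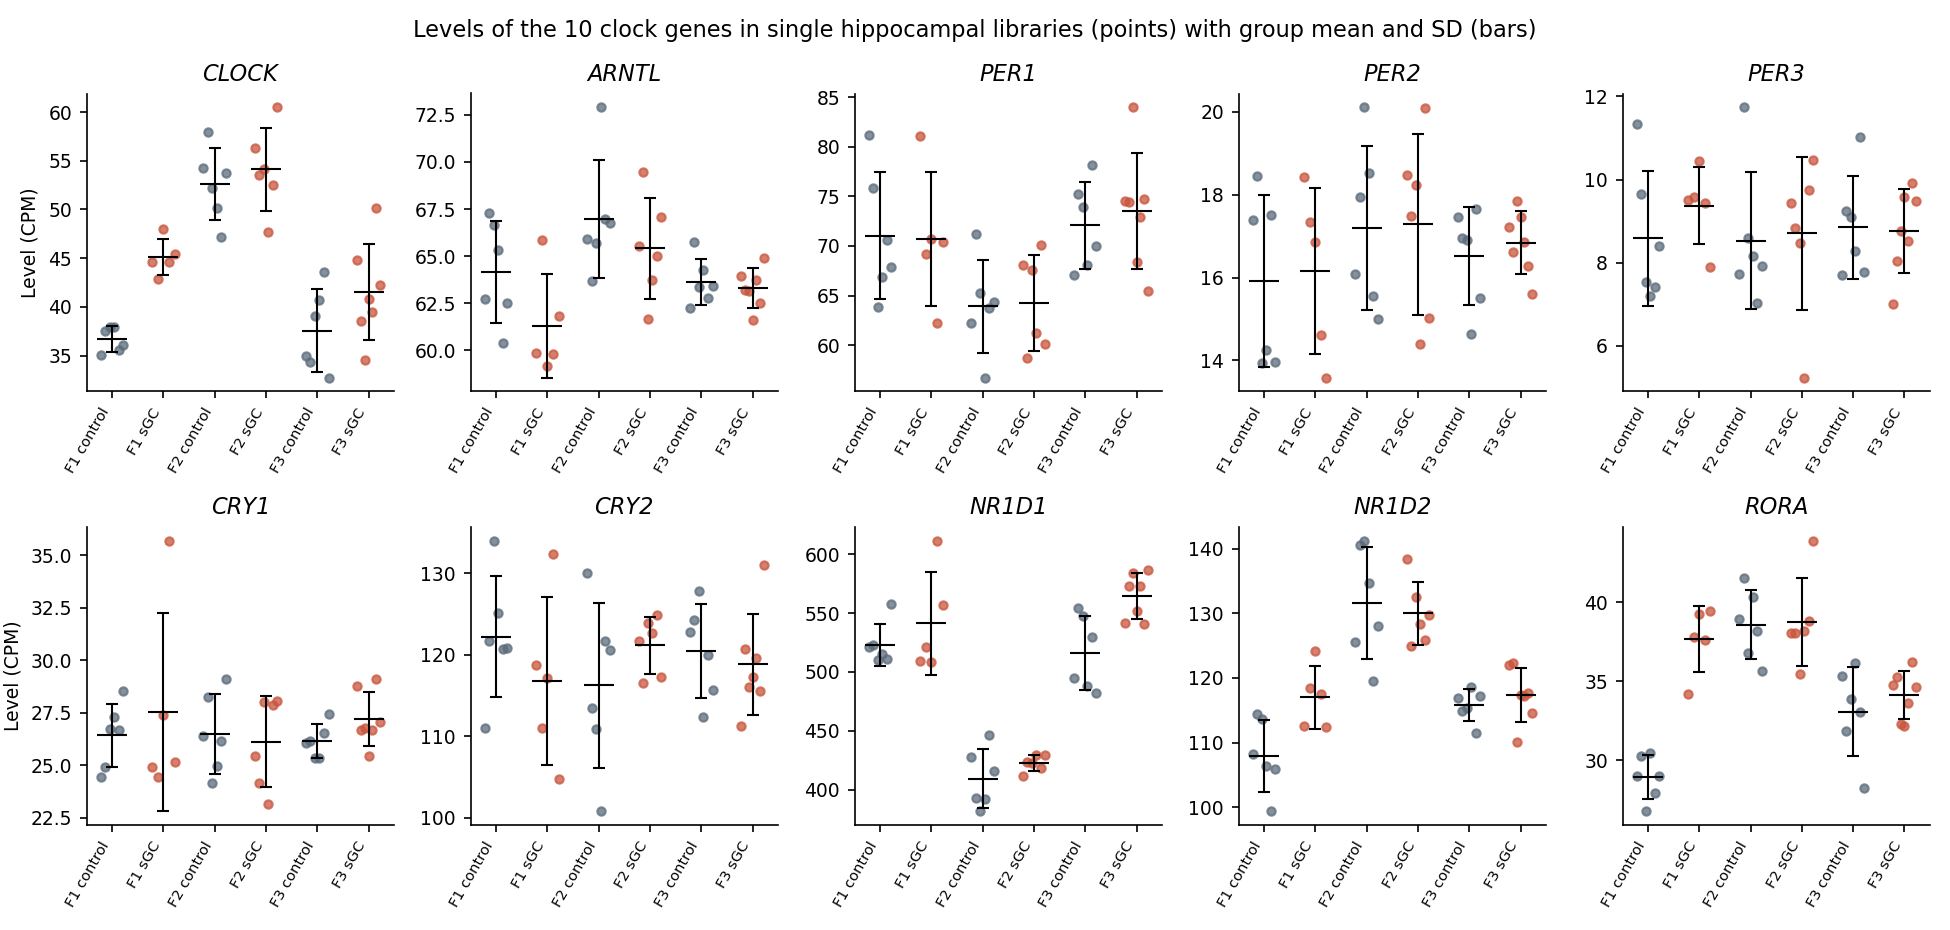
Level of each clock gene (CPM, vertical axes that do not start at 0) in every hippocampal library, by generation and exposure (horizontal axis), grey for control and red for sGC, with the group mean and SD in black. CLOCK and RORA are the panels in which all 5 F1 sGC points lie above all 6 F1 control points, and the F2 groups sit high for CLOCK, NR1D2 and RORA and low for NR1D1.

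CLOCK, the DNA-binding partner of ARNTL, had 35.01 CPM in the lowest, 36.8 in the median and 38.0 in the highest of the 6 control animals of F1. The 5 sGC animals had 44.6, 42.9, 47.95, 44.6 and 45.4 CPM. All 5 sGC values lay above the highest control value, by a gap wider than the whole control range. Control animals averaged 36.7 ± 1.30 (SD, n = 6) and sGC animals 45.1 ± 1.84 CPM (SD, n = 5), which is a log2 ratio of 0.29 with an SE of 0.0416, or 1.22-fold. ARNTL, its partner, went the other way in value without passing the threshold. Control animals had 64.1 ± 2.70 (SD, n = 6) and sGC animals 61.3 ± 2.744 CPM (SD, n = 5), a log2 ratio of -0.07 (SE 0.0429), and 1 of 5 sGC animals lay above the control mean.

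RORA, a nuclear receptor that binds the RORE element and activates ARNTL, ranged in F1 control from 26.8 to 30.4 CPM with a median of 29.04. Its levels in the 5 sGC animals were 34.2, 37.8, 39.2, 37.6 and 39.4 CPM. The groups did not overlap, and the sGC animal nearest to the control range was replicate 1. From a mean of 28.9 ± 1.39 CPM in control (SD, n = 6) to one of 37.7 ± 2.09 in sGC (SD, n = 5), the log2 ratio was 0.37 (SE 0.0505), 1.30-fold, the largest among the members. NR1D2, a repressor at the same element, had 99.4 to 114.4 CPM in control (median 107.2) and 112.4 to 124.1 in sGC animals (median 117.5). All 5 sGC animals lay above the control mean and 3 of them above every control animal, and its log2 ratio of 0.11 (SE 0.0429) did not pass.

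The remaining members of F1 had overlapping groups and did not pass. NR1D1, the main circadian repressor of ARNTL, had 510.4 to 557.9 CPM in control and 509.5, 520.9, 508.2, 611.8 and 556.9 CPM in the sGC animals, so that 2 of 5 sGC animals were above the control mean. Those 2, replicates 4 and 5, belong to the libraries numbered 32 to 36, and the log2 ratio of 0.04 (SE 0.0523) became -0.03 without them. Within the negative arm, whose products repress the CLOCK and ARNTL pair, the log2 ratios were -0.01 for PER1, 0.01 for PER2, 0.12 for PER3, 0.05 for CRY1 and -0.07 for CRY2, with SEs from 0.0572 for CRY2 to 0.122 for PER3. CRY1 was highest in sGC replicate 4, at 35.7 CPM, where the other 4 sGC animals had 24.5 to 27.4 and the controls 24.5 to 28.5.

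CLOCK and RORA stayed past the threshold, with the same sign, in all 18 alternative fits of F1, with log2 ratios between 0.27 and 0.31 for CLOCK and between 0.35 and 0.41 for RORA. Without sGC replicates 4 and 5 they were 0.29 and 0.36. Markers of other cells moved in the same comparison, in which 2230 of the 11377 genes tested had an unadjusted p below 0.05. All 8 astrocyte markers tested had positive log2 ratios (median 0.24, against -0.01 over all genes), 0 of them past the threshold in edgeR and 6 at an unadjusted p below 0.05, and their summed level ran from 8475 to 11123 CPM in control and from 9747 to 15990 in sGC animals, where replicate 4 was the highest. All 7 meningeal markers tested had negative values (median -0.54), with DCN (log2 ratio -0.995) and LUM (-0.50) past the threshold, and summed levels of 817 to 1300 CPM in control and 636 to 1133 in sGC animals. The 5 oligodendrocyte markers tested were negative too (median -0.28, summed levels 1503 to 2121 and 1348 to 1942 CPM) with 0 past the threshold and 2 at an unadjusted p below 0.05. Of 6 striatal markers tested 4 were negative and 2 positive, TAC1 being the 1 past the threshold (log2 ratio -0.46). Microglial markers were positive for 6 of 7 tested (median 0.17), with 0 past the threshold in edgeR and 3 at an unadjusted p below 0.05, and summed to 199.3 to 251.2 CPM in control and 236.5 to 333.1 in sGC animals over the 6 genes measured in all generations. The values of CLOCK and RORA without sGC replicates 4 and 5, the animals highest in astrocyte markers, are the 0.29 and 0.36 given above. The sGC replicates 1, 2 and 3 that remain had summed astrocyte levels of 9747, 10887 and 10762 CPM, where the control median was 9522. The part of astrocyte, meningeal, oligodendrocyte, striatal and microglial cells in the result was not tested. In whole tissue, fewer cells of a type and less RNA per cell cannot be told apart.

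In F2, 0 of the 10 members were past the threshold in edgeR (0 at an unadjusted p below 0.05), as were 0% of the 11414 genes tested, although 758 genes had an unadjusted p below 0.05. By DESeq2 and by edgeR's likelihood ratio test, again 0 members passed. Member by member, log2 ratios lay between -0.03 for ARNTL and 0.06 for CRY2. CLOCK was at 47.2 to 57.9 CPM in control (median 53.0) and 47.6 to 60.5 in sGC animals (median 53.9), and the 2 ranges nearly coincided. Its log2 ratio was 0.04, with a 95% interval from -0.07 to 0.15. RORA had 35.7 to 41.5 CPM in control (median 38.6) and 35.5 to 43.9 in sGC animals (median 38.1), a log2 ratio of 0.01 (95% interval -0.10 to 0.11). Another 2 members had all 6 sGC animals above the control mean while the groups overlapped, CRY2 (100.8 to 130.1 CPM in control, 116.6 to 124.9 in sGC) and NR1D1 (381.7 to 446.2 and 411.6 to 429.7), and in both the control animals were the more spread. Groups that do not overlap made up 0.378% of all genes in F2 and 0 of the members.

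In F3, 0 members were past the threshold in the quasi-likelihood test of edgeR, where 5.04% of the 11359 genes tested were. By DESeq2 and by the likelihood ratio test 1 was, NR1D1, and the share of all genes in those 2 tests is not given here. NR1D1 was also the 1 member at an unadjusted p below 0.05 in edgeR, beside 2397 of the 11359 genes tested. NR1D1 had 481.9 to 554.5 CPM in control (median 512.4) and 540.8 to 587.0 in sGC animals (median 573.0). All 7 sGC animals lay above the control mean and 4 of them above every control animal. The log2 ratio was 0.13 (SE 0.0382), or 1.09-fold. CLOCK had a slightly larger value, 0.14, with a wider error (SE 0.0797), with 32.7 to 43.6 CPM in control and 34.6 to 50.2 in sGC animals. RORA, the gene with the largest value in F1, had 28.2 to 36.2 CPM in control (median 33.5) and 32.2 to 36.2 in sGC animals (median 34.6), a log2 ratio of 0.05 (SE 0.0529). For the other 7 members the log2 ratios lay between -0.02 and 0.06. Groups that do not overlap were 2.58% of all genes in F3 and 0 of the members. Astrocyte markers were positive here as well, 8 of 8 tested, with SLC1A2, S100B and GLUL past the threshold and a summed level of 9332 to 10296 CPM in control and 10501 to 12082 in sGC animals, groups that do not overlap. Of 5 thalamic markers tested 3 were positive and 2 negative, LEF1 being the 1 past the threshold (log2 ratio 0.23). Microglial markers were positive for 7 of 7 tested (median 0.10, summed levels 200.3 to 272.4 CPM in control and 239.1 to 284.1 in sGC animals) and meningeal markers likewise for 7 of 7 (median 0.16, summed levels 815.8 to 1023 and 869.1 to 1207 CPM), with 0 past the threshold in edgeR and 2 at an unadjusted p below 0.05 in either list. The part of these cells in the NR1D1 value was not tested.

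**Figure D2:**
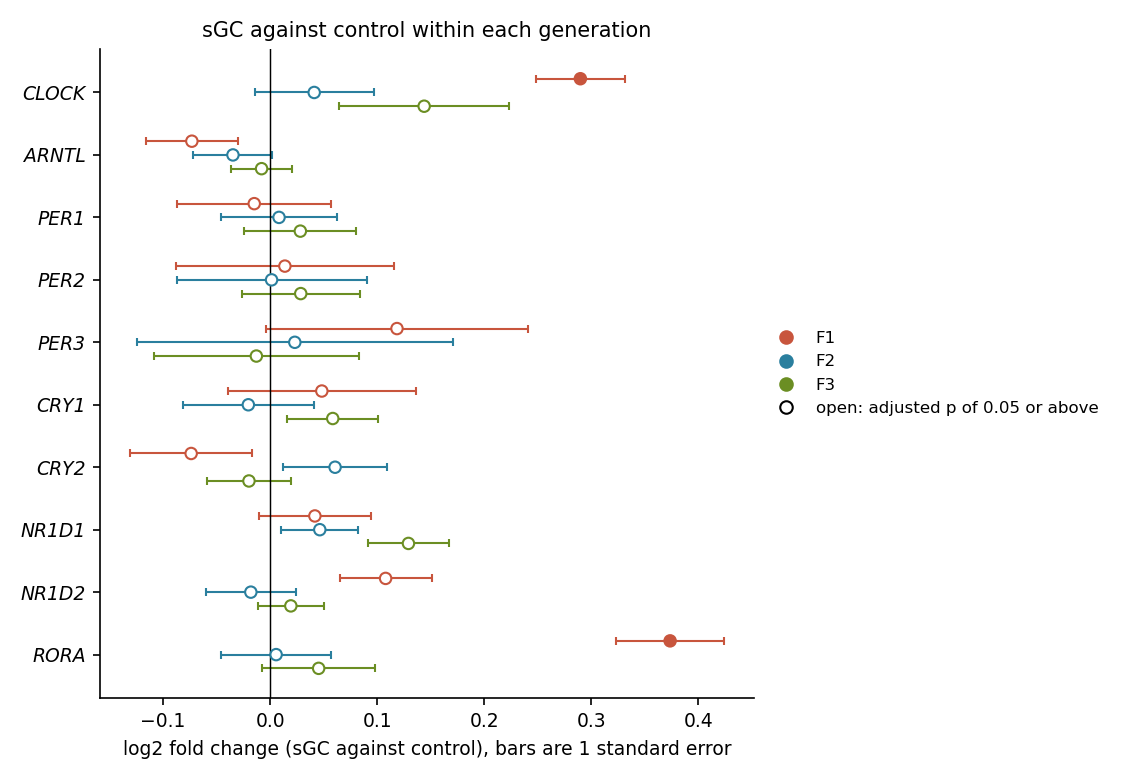
Log2 fold change of sGC against control (horizontal axis) for the 10 clock genes (vertical axis) in F1, F2 and F3, with bars of 1 standard error, filled where the adjusted p from edgeR was below 0.05. The filled points are CLOCK at 0.29 and RORA at 0.37, both in F1, and the F2 points lie between -0.03 and 0.06.

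The effect of sGC itself was compared between generations as an interaction over all 36 libraries. For RORA it was lower in F2 than in F1 by a log2 difference of -0.38 (SE 0.0751), past the threshold as 1 of 10 members, beside 0.290% of the 11390 genes tested. This call was lost with the replicate block and when any 1 of 6 single animals was left out. The corresponding difference was -0.34 (SE 0.0743) between F3 and F1, and 0.04 (SE 0.072) between F3 and F2, where 0% of genes were past the threshold in either comparison, 0 members among them (1, RORA, and 0 at an unadjusted p below 0.05, and 1 and 0 by DESeq2). Over all 11390 genes, 1490 and 1034 had an unadjusted p below 0.05. The share of all genes past the threshold by DESeq2 is not given here. CLOCK had differences of -0.26 (SE 0.0971) for F2 against F1 and -0.15 (SE 0.0968) for F3 against F1, neither past the threshold. These interactions contain the F1 difference on which the list was chosen, and are given as values.

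Control animals were compared across generations, a contrast that does not use the sGC libraries. It shares its control animals with the sGC against control values known when the list was chosen. Its p-values are therefore not independent of that choice. CLOCK, RORA and NR1D2 were higher and NR1D1 and PER1 lower in F2 than in F1, so that 5 of 10 members were past the threshold where 47.1% of the 11311 genes tested were, a share near that of all genes. The log2 ratio of CLOCK was 0.52 (SE 0.0602, edgeR adjusted p = 2.06e-07), from 36.7 ± 1.30 to 52.6 ± 3.68 CPM (SD, n = 6 each), or 1.43-fold. RORA followed with 0.41 (SE 0.0543, edgeR adjusted p = 1.27e-06), from 28.9 ± 1.39 to 38.6 ± 2.18 CPM (SD, n = 6 each). In both genes the 6 F2 control animals lay above all 6 F1 control animals. NR1D2 rose by 0.28 on the log2 scale (edgeR adjusted p = 4.09e-06), from 108.0 ± 5.58 to 131.6 ± 8.70 CPM (SD, n = 6 each). NR1D1 moved opposite to its paralog, from 523.1 ± 17.8 to 409.2 ± 24.9 CPM (SD, n = 6 each), a log2 ratio of -0.36 (edgeR adjusted p = 3.23e-07). PER1 fell by 0.16 on the log2 scale (edgeR adjusted p = 0.0310), from 71.0 ± 6.397 to 63.9 ± 4.68 CPM (SD, n = 6 each) with overlapping groups. Its call was lost without F1 control replicate 1 (edgeR adjusted p = 0.0972) or 2 (0.0748), and without F2 control replicate 1 (0.0564), 4 (0.0916) or 5 (0.0573). ARNTL, PER2, PER3, CRY1 and CRY2 did not pass, with log2 ratios between -0.08 and 0.11.

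F3 control animals had values close to those of F1 for CLOCK and NR1D1. Between F3 and F1, 0 members and 0.0177% of the genes tested were past the threshold, and the log2 ratio was 0.04 for CLOCK (95% interval -0.08 to 0.16, edgeR adjusted p = 0.902) and -0.02 for NR1D1 (95% interval -0.10 to 0.06, edgeR adjusted p = 0.933). By DESeq2, too, 0 members passed. At an unadjusted p below 0.05 there were 2, RORA (log2 ratio 0.20, SE 0.0547, edgeR adjusted p = 0.343) and NR1D2 (0.10, SE 0.0405, edgeR adjusted p = 0.470), both with F3 between F1 and F2. Over all genes, 1012 of 11311 had an unadjusted p below 0.05 there. From F2 to F3 the same 5 members as between F2 and F1 were past the threshold, each in the opposite direction, beside 40.0% of all genes. CLOCK fell by 0.48 on the log2 scale (edgeR adjusted p = 7.03e-07), RORA by 0.22 (adjusted p = 0.00243) and NR1D2 by 0.18 (adjusted p = 0.000832), while NR1D1 rose by 0.34 (adjusted p = 7.97e-07) and PER1 by 0.18 (adjusted p = 0.0186). The last was lost without F2 control replicate 4 (edgeR adjusted p = 0.0578). Generation and cohort cannot be told apart in these libraries, and the comparisons share the F2 control animals. In the F2 against F1 control comparison 5 of 8 astrocyte markers tested were positive and 3 negative, with 3 past the threshold and higher (SLC1A2, SLC1A3 and S100B). Of 10 hippocampal neuron markers tested 7 were negative and 3 positive, with 4 past the threshold and lower (WFS1, NEUROD2, C1QL2 and BOK). Between F2 and F1 control animals 47.1% of all genes were past the threshold. Past it and lower were CLDN5 and FLT1 of 7 endothelial markers (4 positive, 3 negative) and PTGDS of 7 meningeal ones (1 positive, 6 negative). MAG of 5 oligodendrocyte markers (1 positive, 4 negative) was lower too. Of 6 striatal markers (1 positive, 5 negative), PPP1R1B and TAC1 were lower and PDE10A higher. Of 5 thalamic markers (1 positive, 4 negative), TCF7L2 was lower and PLEKHG1 higher. P2RY12 was higher, among 6 microglial markers (2 positive, 4 negative). The part of these cells in the members' values was not tested.

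**Figure D3:**
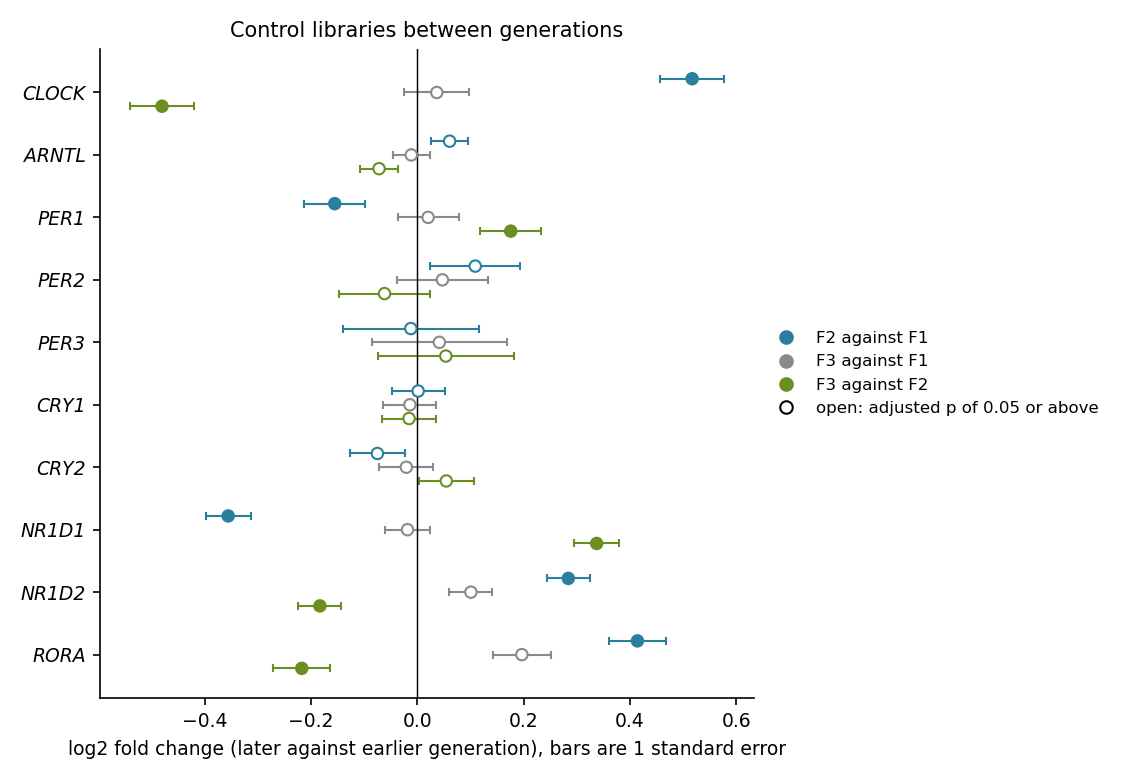
Log2 fold change between control animals of different generations (horizontal axis) for the 10 clock genes (vertical axis), with bars of 1 standard error, filled where the adjusted p from edgeR was below 0.05. F2 against F1 and F3 against F2, which share the F2 control animals, have opposite signs in the 5 members filled in both. CLOCK was at 0.52 and -0.48, NR1D1 at -0.36 and 0.34, PER1 at -0.16 and 0.18, RORA at 0.41 and -0.22, and NR1D2 at 0.28 and -0.18. All F3 against F1 points are open.

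Ordered by mean, CLOCK ran from F1 control (36.7 CPM) over F3 control (37.6), F3 sGC (41.5), F1 sGC (45.1) and F2 control (52.6) to F2 sGC (54.1). Of the steps between neighbours in this order, the one from F1 sGC to F2 control, 7.48 CPM, was wider than the larger SD of the pair, 3.68 CPM, and even there the ranges touched (highest F1 sGC animal 47.95, lowest F2 control animal 47.2). RORA ran from F1 control (28.9 CPM) over F3 control (33.1), F3 sGC (34.1), F1 sGC (37.7) and F2 control (38.6) to F2 sGC (38.7). Its steps from F1 control to F3 control and from F3 sGC to F1 sGC exceeded the larger SD, and the last 3 groups did not differ beyond their spread. The fold changes for sGC in F1 and for F2 control share the F1 control animals, so that the 2 are set side by side without a test of likeness. NR1D1 had its lowest means in the F2 groups (409.2 and 422.5 CPM) and a gap of 93.7 CPM to the next, F3 control (516.2), with no overlap, and NR1D2 its highest in the same groups (131.6 and 130.0 CPM). ARNTL, PER1, PER2, PER3, CRY1 and CRY2 had no step between neighbouring groups wider than the larger SD.

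Covariation between animals of the same group was measured on log2 CPM after the 6 group means were removed, over 36 libraries, and does not use differences between groups. Of 45 pairs of members, 0 passed an adjusted p of 0.05 by Pearson's r with a permutation test of libraries within their groups, and 10 had an unadjusted p below 0.05. PER1 and PER2, the E-box driven repressors, had the highest correlation (r = 0.56, permutation p = 0.00165, adjusted p = 0.0745, and rho = 0.55, adjusted permutation p = 0.048), which was 0.74 in F1, 0.40 in F2 and 0.55 in F3. Without the 2 libraries farthest from the median of PER1 it was 0.52. In the pairs below too, the 2 farthest libraries were those of the first-named gene alone. NR1D1 and NR1D2 varied inversely (r = -0.48, permutation p = 0.00569, adjusted p = 0.0893, and rho = -0.58, adjusted permutation p = 0.0454), with -0.11 in F1, -0.89 in F2 and -0.53 in F3, and -0.48 without the 2 farthest libraries. These 2 pairs passed by Spearman's rho alone. Second highest was the r of CRY2 and NR1D1 (0.51, permutation p = 0.0119, adjusted p = 0.0893, rho = 0.49, adjusted permutation p = 0.136). It was 0.27 in F1, 0.66 in F2 and 0.72 in F3, and 0.38 without the 2 farthest libraries. CLOCK and RORA, the members that differed in F1, had r = 0.48 (permutation p = 0.00782, adjusted p = 0.0893, rho = 0.42, adjusted permutation p = 0.154), with 0.26 in F1, 0.42 in F2 and 0.59 in F3, and 0.43 without the 2 farthest libraries. PER2 and PER3 had r = 0.47 (permutation p = 0.0119, adjusted p = 0.0893, rho = 0.45, adjusted permutation p = 0.136). CLOCK and ARNTL, partners in 1 protein complex, had a correlation near 0 (r = -0.06, permutation p = 0.688, adjusted p = 0.881, rho = 0.03, adjusted permutation p = 0.929). Over all 45 pairs, 15 kept 1 sign in all 3 generations. No such count over pairs of other genes was made, so nothing is read from this one or from the 10 above.

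**Figure D4:**
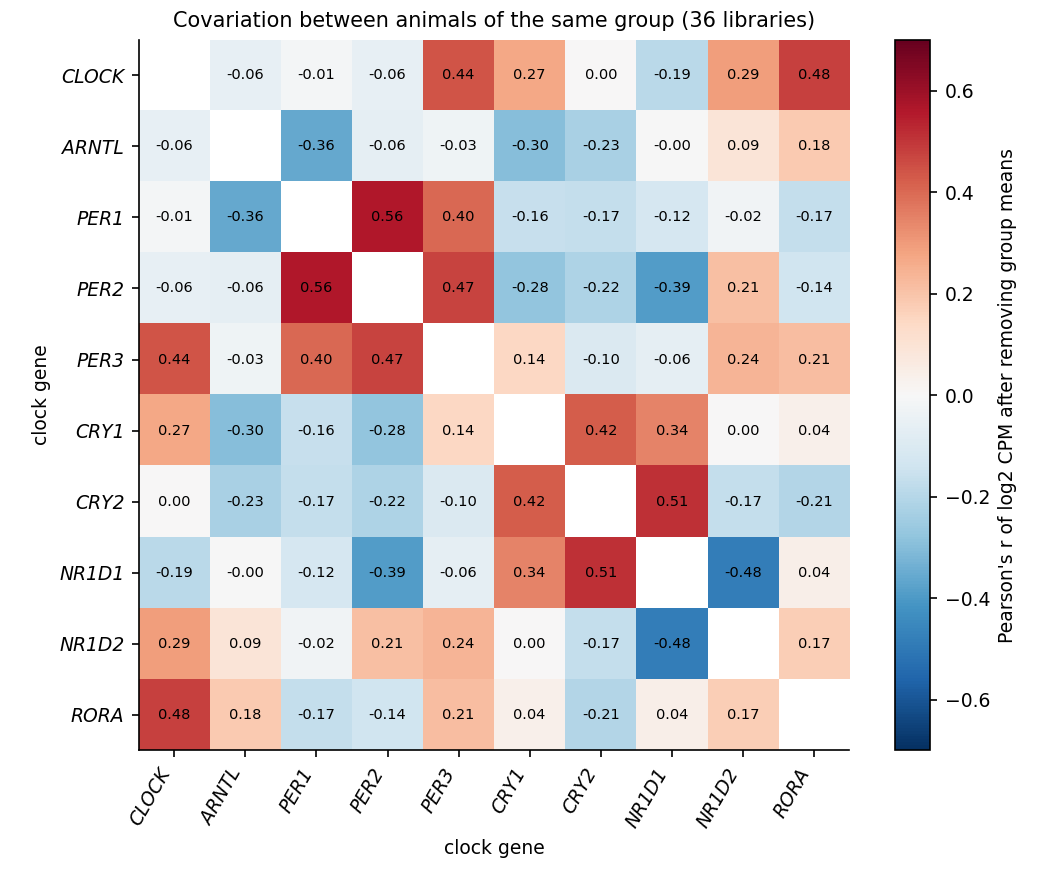
Pearson's r between clock genes (both axes) over 36 libraries after removal of the group means, from blue for negative to red for positive values. The highest value joins PER1 and PER2 (0.56) and the lowest NR1D1 and NR1D2 (-0.48), and the highest value of ARNTL is 0.18, with RORA.

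The genes whose levels were most like those of a member, by the same residual correlation over 36 libraries, were in no case other members or genes of the list of further clock genes. CLOCK was nearest to DMXL1, AKAP9, FAM126B, SMG1 and PIK3C2A, with r from 0.84 to 0.86, while RORA stood at rank 740 of 11160 genes in its list. Nearest to RORA were SHANK2, UNC80, ZNF106, EEA1 and MED12L (r from 0.72 to 0.78). For PER1 they were EDC4, ATP13A1, ATXN2L, ZSWIM8 and HM13 (0.70 to 0.75) and for PER2 BMP1, HM13, DPP7, RNF123 and PPP1R1B (0.72 to 0.77), with DBP, a clock-controlled transcription factor, at rank 37 for PER2 (r = 0.62). ARNTL had the weakest neighbours of all members, NUDT18, PELI1, ACO1, CMTR2 and MBTPS2 (0.54 to 0.59). PER3 stood with TCEB2, CHKA, SRRM2, PARP4 and COL2A1 (0.71 to 0.76), CRY1 with DDAH2, FGF11, RP2, SLC15A2 and EPAS1 (0.73 to 0.74), CRY2 with TSSC1, FAM73B, PHF13, SSTR3 and MXD4 (0.68 to 0.73), and NR1D2 with FAM135A, PIGN, THAP2, C5orf51 and FXR1 (0.68 to 0.75). Over all genes the median r with a member was between -0.01 and 0.01, but the spread was wide. The 5th percentile lay between -0.46 (CRY1) and -0.31 (ARNTL), and the 95th between 0.31 (ARNTL) and 0.52 (CLOCK). The r of 0.48 between CLOCK and RORA was under the 95th percentile of CLOCK and above that of RORA, 0.41.

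NR1D1 had the closest neighbour of any member, THRA (r = 0.91, and 0.97 in F1, 0.86 in F2 and 0.89 in F3), ahead of CHD3, AGAP2, DLGAP3 and NISCH (0.82 to 0.84). THRA encodes thyroid hormone receptor alpha and is listed next to NR1D1 in the RefSeq annotation mCavPor4.1. In mammals the 2 genes lie tail to tail on opposite strands and a transcript form of THRA overlaps NR1D1. The library kit does not mark the strand, so reads from the shared stretch cannot be assigned to one gene, and the level of NR1D1 is uncertain to that extent. THRA had log2 ratios for sGC of 0.07 in F1, 0.04 in F2 and 0.12 in F3, where NR1D1 had 0.04, 0.05 and 0.13. Between F2 and F1 control animals THRA fell by 0.12 on the log2 scale (edgeR adjusted p = 0.0141) and NR1D1 by 0.36. The plot of the pair shows 2 bands, in which F2 libraries have less NR1D1 at the same THRA level.

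**Figure D5:**
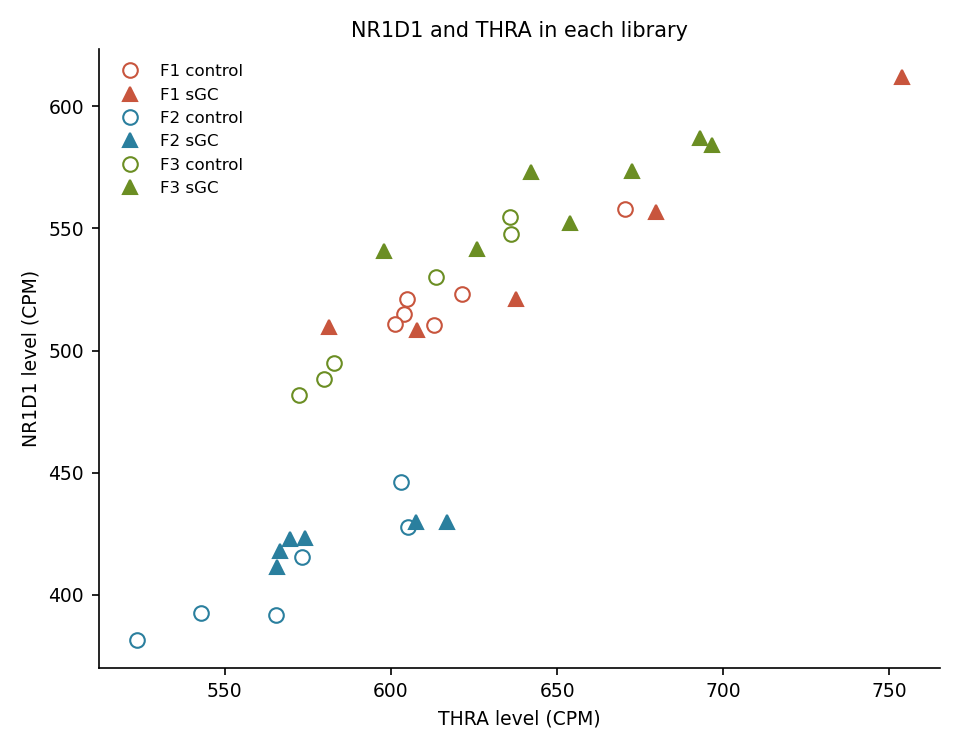
NR1D1 level (vertical axis, CPM) against THRA level (horizontal axis, CPM) in each of the 36 libraries, coloured by generation, open circles for control and filled triangles for sGC. Within each generation the 2 levels rise together (r = 0.97, 0.86 and 0.89 after removal of group means), and the F2 libraries form a lower band, at 381.7 to 446.2 CPM of NR1D1.

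Of 31 further genes of the clock and its output, 26 could be tested. In F1 0 of 26 were past the threshold in edgeR (4 at an unadjusted p below 0.05, beside 2230 of all 11377 genes), with a median log2 ratio of -0.02 against -0.01 over all genes. RORB, the second ROR receptor, had the largest positive value (0.35, SE 0.127, edgeR adjusted p = 0.153), followed by the kinase GSK3B (0.18, edgeR adjusted p = 0.0596), and the largest negative ones were those of NFIL3, a repressor of the D-box element (-0.28, edgeR adjusted p = 0.1004), and BHLHE40 (-0.11, edgeR adjusted p = 0.606). RORB was at 27.3 to 34.4 CPM in F1 control and 28.7 to 54.5 in sGC animals, so that its groups overlapped where those of RORA did not. In F2 again 0 of 26 passed (2 at an unadjusted p below 0.05, beside 758 of all 11414 genes), and values ran from -0.13 (SFPQ) and -0.11 (TIMELESS) to 0.14 (KLF10) and 0.15 (NFIL3). In F3 1 of 26 passed, RORB, beside 5.04% of all genes tested. Groups that do not overlap made up 2.58% of all genes there. RORB had 29.6 to 35.6 CPM in control and 36.3 to 39.1 in sGC animals, groups that did not overlap. Its log2 ratio was 0.19 (SE 0.0468, edgeR adjusted p = 0.0284). The largest values of the list in F3 were those of NPAS2, a paralog of CLOCK (0.20, edgeR adjusted p = 0.0516), TIMELESS (0.19), NFIL3 (-0.15) and NOCT (-0.13).

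Between F2 and F1 control animals 13 of the 26 further genes were past the threshold, 6 higher and 7 lower, a share near the 47.1% of all genes. TEF, a transcription factor of the D-box element, stood out in size among the 26, with 511 to 533 CPM in F1 control, 247 to 272 in F2 control and 478 to 570 in F3 control, a log2 ratio of -1.01 (SE 0.0368, edgeR adjusted p = 8.58e-17) and one of 0.97 from F2 to F3 (edgeR adjusted p = 1.91e-16). The sGC animals followed their generation, at 478 to 571 CPM in F1, 253 to 276 in F2 and 492 to 554 in F3. A larger fall was found outside the clock lists, in the hippocampal neuron marker BOK. It had 35.9 to 53.1 CPM in F1 control and 4.24 to 7.74 in F2 control. With TEF, the lower genes were TIPIN, DBP, NFIL3, CSNK1E, USP2 and NOCT (-0.28 to -0.13), and among the higher ones were RORB, BTRC, PPARGC1A, SIRT1 and GSK3B (0.08 to 0.35). From F2 to F3 BHLHE40, TEF, CSNK1D, USP2 and NOCT were higher and RORB, BTRC, PPARGC1A, SIRT1 and GSK3B lower, 10 of the 26 beside 40.0% of all genes, and between F3 and F1 0 of the 26 passed in edgeR (3 at an unadjusted p below 0.05, beside 1012 of all 11311 genes). Of 9 glucocorticoid-induced genes tested, from a list of 12, 0 passed for sGC in any generation (at an unadjusted p below 0.05 there were 3 in F1 and 0 in F2 and F3), and of 13 immediate early genes, which report recent neuronal activity, 0 passed either (1, 1 and 2 at an unadjusted p below 0.05). Over all genes tested, 2230, 758 and 2397 had an unadjusted p below 0.05 in F1, F2 and F3. Immediate early genes were positive for 3 and negative for 10 in F1 (median log2 ratio -0.15). In F2 they were positive for 13 and negative for 0 (median 0.15), and in F3 positive for 8 and negative for 5 (median 0.10). These directions were not tested. Between F2 and F1 control animals 3 of the 13 immediate early genes passed, FOSB, JUNB and DUSP1, all lower, beside 47.1% of all genes. Of the 9 glucocorticoid-induced genes, 4 passed there and were lower, DUSP1 again among them, and 1 passed and was higher.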

How the data were processed

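RNA-seq counts of 36 hippocampal libraries were analysed. The authors deposited whole-number read counts per gene and library for each generation, not normalized, made from TruSeq V2 libraries with TopHat2 according to the submitters' processing notes. The counting tool and the annotation are not given in the sources used here. The same tables hold the authors' own comparison (log2 fold change, mean log2 CPM, likelihood ratio, dispersion, p-value and FDR), and 6 methylation tables hold differences with p-values and q-values only. Neither was used, and 0 columns of single samples were left unmapped.

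Members and gene lists were chosen with earlier results of these data known. Genes were kept by filterByExpr, libraries scaled by TMM, and groups compared by the quasi-likelihood test of edgeR 4.0.16 (limma 3.58.1, R 4.3.3) and Benjamini-Hochberg adjusted p-values, called below 0.05. Control generations were fitted over the control libraries. Levels are counts per 1e+06 reads. Pair correlations used log2 CPM with a prior count of 2, group means removed, and 100000 two-sided permutations within groups, whose smallest p is 1e-05 (Python 3.11.15, numpy 2.4.6, pandas 2.3.3, scipy 1.17.1, matplotlib 3.10.9). Replicates are different animals by the study's methods, and the p-values of the fits set a difference against the variation between them. Libraries of one group differed by 2.12 to 29.1 in chi-square per degree of freedom over 91 pairs, so none was counted as a duplicate.

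Named were all 10 members, of the further clock genes those past the threshold plus the 2 highest and 2 lowest log2 fold changes per generation, the 5 nearest genes of each member, and marker genes past the threshold, at most 4 per list. DBP and PROX1, FIBCD1 and the single markers named without a call were added after their values were seen. Alternatives were edgeR's likelihood ratio test, DESeq2 1.42.0, its size factors, no filter, all generations together, the replicate number as a block, leaving out libraries 32 to 36, and each animal left out, and for the correlations also the prior count, rho, and single generations or exposures. Those of the interaction were chosen after seeing the data. The fits were tested on simulated data. Values of a few listed genes are left out of the text.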

Additional observations from a re-analysis of the deposited data

Results flagged for a closer look

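The effect of sGC on RORA differed between F2 and F1 by a log2 difference of -0.38, past the threshold of edgeR's interaction test over all genes. The call was lost with the replicate block (-0.38) and without F1 control replicate 5 (-0.37), F1 sGC replicate 5 (-0.36), F2 control replicate 2 (-0.35) or 4 (-0.36), or F2 sGC replicate 4 (-0.37) or 5 (-0.37), and the difference contains the F1 comparison on which the list was chosen.

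Single animals lay far from the rest of their group in 4 of the 60 combinations of member and group, where chance gives about 1 in 20. ARNTL was at 72.9 CPM in F2 control replicate 4, with the next animal at 67.0. PER3 was at 11.7 CPM in F2 control replicate 2 (next 8.59). CRY1 reached 35.7 CPM in F1 sGC replicate 4 (next 27.4), the animal whose summed astrocyte markers were also the highest of all groups, at 15990 CPM. NR1D1 was at 557.9 CPM in F1 control replicate 6 (next 523.1), where THRA was at 670.4 CPM.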

How the results depend on the processing

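In F1, CLOCK and RORA were the members past the threshold under every alternative, the replicate block included. In F2, 0 members passed under any alternative, and in control animals 0 between F3 and F1. In F3 the count was 1 (NR1D1) by the likelihood ratio test and 1 by DESeq2, and 0 to 1 with single animals left out (1 without control replicate 2 or sGC replicate 6), and the cause was not tested. The share of all genes past the threshold under the alternatives is not given here. Among control animals, the calls of CLOCK, RORA, NR1D1 and NR1D2 between F2 and either other generation held in all alternatives, and PER1 lost its call only with the single animals named above left out. The interaction of F2 against F1 had 0 members with the replicate block and 0 to 1 with single animals left out, and that of F3 against F1 had 1 (RORA) by the likelihood ratio test, 1 by DESeq2, 1 without libraries 32 to 36, and 0 to 1 with single animals left out (1 without F1 sGC replicate 4, F3 control replicate 6 or F3 sGC replicate 6). Of the pairs of members, 2 passed by Spearman's rho, 1 in control animals alone (PER1 and PER3, r = 0.82), and 0 to 2 with single animals left out. Of the 10 pairs with an unadjusted p below 0.05, 3 changed sign in a single generation: CLOCK and PER3 in F1 (r = -0.23), PER2 and NR1D1 in F3 (0.38) and CRY1 and CRY2 in F3 (-0.32). For the replicate block, samples of the same number deviated together with correlations from -0.29 to 0.29, and 4 of 17 correlated best with their own number, so the numbers do not pair the samples. The block left the members called in F1 at 2, with an adjusted p of 0.0425 for CLOCK and 0.0375 for RORA from edgeR, and changed no other call but that of the interaction. PER3 had the fewest reads and log2 standard errors of 0.0959 to 0.148 for sGC, the widest of the members in each generation, and the part of depth in them was not tested.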
